A study of Mus musculus with 12 samples.

Results

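The RNA levels of 9 genes that mark dendritic cells or direct their development were followed in sorted mouse immune samples from tumor and spleen. The genes were Flt3, Zbtb46, Xcr1, Batf3, Irf8, Irf4, Siglech, Cd209a and Tcf4. They were chosen by symbol from the deposited count table, which holds 33100 gene rows, and 8 of the 9 passed the filter on low counts that left 16831 genes to be tested. Siglech did not pass and was given by its counts alone. The samples were bulk RNA libraries of mouse cells labelled as natural killer (NK) cells, in 4 groups of 3 libraries. The tumor cKO and spleen cKO groups came from mice in which 1 gene was knocked out conditionally (cKO), and the tumor WT and spleen WT groups from control (WT) mice. The level of the knocked-out gene, which would check the genotype labels, is not analysed here. The labels used here do not give the Cre driver, the tumor model, the age of the mice or whether replicates are different animals. The p-values therefore cover no more than the spread among these libraries, which may be technical.

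Dendritic cells take up antigen and present it to T cells, and they fall into conventional type 1 cells (cDC1), conventional type 2 cells (cDC2) and plasmacytoid cells (pDC). The growth factor receptor FLT3 supports the progenitors of all of them, whereas the transcription factors BATF3 and IRF8 are needed for cDC1, IRF4 for cDC2 and TCF4 for pDC. NK cells in tumors are known to make the chemokine XCL1 and the cytokine FLT3 ligand, which act on cDC1 through XCR1 and FLT3. Several of the 9 genes are not restricted to dendritic cells: Irf8, Irf4 and Tcf4 are also active in B cells, Irf8 in monocytes and macrophages, and Irf4 in activated T cells.

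The stretches of DNA just before the start sites of 4 of the genes that were lower in tumor cKO are shown here, because these genes moved together in that comparison. RefSeq promoter entries (GRCm38.p6) were matched by symbol for 8 of the 9 genes. The window was the 250 bases before each start, and all are printed 5′ to 3′ on the gene's strand. Capitals mark matches to TTCNNNGAA, the interferon-gamma-activated site (GAS) bound by STAT factors. Irf8 lies at chr8:120736108-120736357 on the plus strand, Irf4 at chr13:30748983-30749232 on the plus strand and Cd209a at chr8:3748985-3749234 on the minus strand. Of Batf3 only the 29 bases around its match are shown, chr1:191098165-191098193 on the plus strand. They lie before the RefSeq start but within an exon of the gene as counted, which begins further upstream.
Irf8: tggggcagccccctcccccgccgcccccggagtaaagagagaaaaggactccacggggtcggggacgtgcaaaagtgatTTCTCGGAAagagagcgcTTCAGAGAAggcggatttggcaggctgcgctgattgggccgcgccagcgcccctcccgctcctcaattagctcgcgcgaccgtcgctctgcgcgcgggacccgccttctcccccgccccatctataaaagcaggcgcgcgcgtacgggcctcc
Irf4: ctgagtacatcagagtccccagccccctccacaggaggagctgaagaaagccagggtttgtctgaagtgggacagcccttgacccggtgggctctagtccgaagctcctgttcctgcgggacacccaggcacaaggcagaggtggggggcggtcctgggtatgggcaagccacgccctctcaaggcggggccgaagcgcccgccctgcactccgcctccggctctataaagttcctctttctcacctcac
Cd209a: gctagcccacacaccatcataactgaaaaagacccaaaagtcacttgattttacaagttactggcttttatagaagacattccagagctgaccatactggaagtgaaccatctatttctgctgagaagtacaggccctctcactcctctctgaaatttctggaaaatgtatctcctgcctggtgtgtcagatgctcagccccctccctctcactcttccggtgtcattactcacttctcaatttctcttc
Batf3: gccacgtgacTTCCACGAAgagcgggggc
The Irf8 window held 2 GAS matches, at bases −171 to −163 and −153 to −145 from the start, and the Batf3 window held 1, at −239 to −231, as did that of Siglech, at −123 to −115. GAS matches occurred in 7.02% of the 32851 mouse promoter windows. Irf8 has a second RefSeq promoter entry, chr8:120738389-120738638, which held no GAS match. Each motif was searched on both strands. No match to the composite ETS and IRF element (GGAA, any 2 bases, GAAA), which 2.30% of windows held, or to the paired interferon-response sequence (GAAA, any 2 bases, GAAA), which 2.98% held, was found in the windows of the members. TGANTCA, the AP-1 element in 6.75% of windows, was found once, in that of Zbtb46. The Zbtb46 window, chr2:181424389-181424638 on the minus strand, lies inside the gene as counted, which begins further upstream. The E-box CANNTG, to which TCF4 and other E proteins bind, had 5 matches in the Zbtb46 window, 3 in that of Siglech, 2 each in those of Batf3, Cd209a and the second Irf8 entry and 1 each in those of Flt3 and Xcr1, and occurred in 66.2% of all windows. These matches describe letters in the windows only.

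On GRCm38, as given in the count table, Batf3 lies on chromosome 1 (191097847 to 191108945), Zbtb46 on chromosome 2 (181387762 to 181459426), Flt3 on chromosome 5 (147330741 to 147400489) and Siglech on chromosome 7 (55768178 to 55778925). Chromosome 8 holds Cd209a (3743397 to 3748984) and Irf8 (120736358 to 120756694), chromosome 9 Xcr1 (123852315 to 123862029), chromosome 13 Irf4 (30749226 to 30766927) and chromosome 18 Tcf4 (69343356 to 69689079). None of the 9 shares exon bases with another row of the table. Levels are sums over exons, so transcript isoforms, of which Tcf4 has many, were not separated.

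The libraries held between 9542329 and 37118494 counts. Levels are given in CPM, counts relative to the library total after scaling by the trimmed mean of M-values (TMM), with the SD over the libraries of a group. Fold changes are log2 values with their SE from edgeR's quasi-likelihood fit over all 12 libraries, adjusted by the Benjamini-Hochberg method over the 16831 genes. A gene was called at an adjusted p under 0.05. The labelled cell type was compared with fixed marker lists, each summed in CPM. The 11 NK markers summed to 42.7 to 63.9 CPM in tumor cKO and 57.8 to 197 CPM in tumor WT. In spleen they reached 1332 to 1699 CPM (cKO) and 1308 to 1697 CPM (WT). Ncr1, which encodes the NK receptor NKp46, was at 0.421 to 0.769 CPM in tumor cKO and 1.63 to 1.86 CPM in tumor WT. The 11 B cell markers summed to 19.6 to 48.1 CPM in tumor cKO and 13.7 to 74.2 CPM in tumor WT, and in spleen to 2790 to 3267 CPM (cKO) and 3158 to 3575 CPM (WT). The 14 macrophage and monocyte markers summed to 851 to 2256 CPM in tumor cKO and 6404 to 13386 CPM in tumor WT. In spleen they summed to 191 to 271 CPM (cKO) and 110 to 146 CPM (WT). Replicate 2 of tumor WT differed most from its group, with the highest macrophage sum and a stromal and endothelial sum of 1827 CPM.

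**Figure D1:**
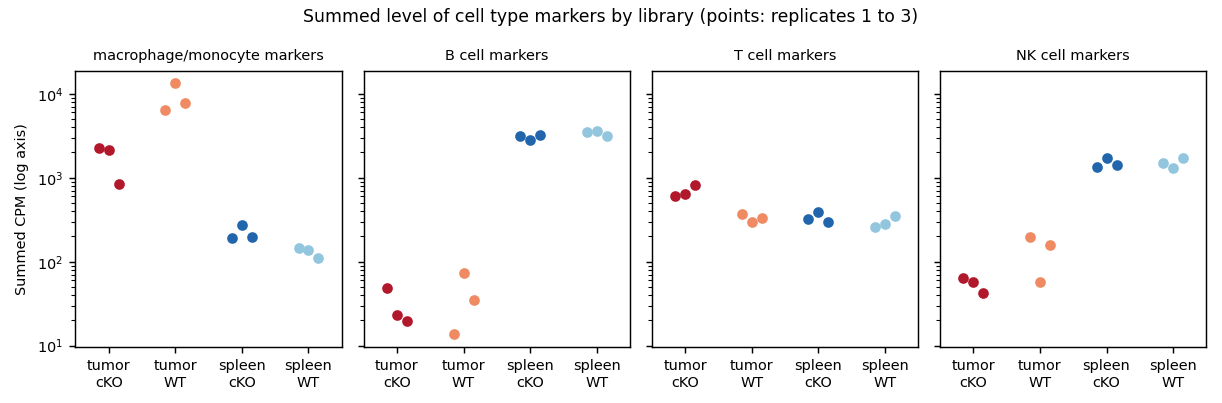
Summed CPM (log axis) of macrophage and monocyte, B cell, T cell and NK cell markers in each of the 12 libraries, in panels with tumor cKO, tumor WT, spleen cKO and spleen WT from left to right; each point is 1 library. Macrophage markers sit between 851 and 2256 CPM in tumor cKO, below the 6404 to 13386 CPM of tumor WT, and B cell and NK markers are higher in all spleen libraries than in all tumor libraries.

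Per kilobase of listed gene length, Irf8 was the most abundant of the 9 genes in all 4 groups and Siglech the least. Irf8 averaged 22.2 ± 7.01 RPKM in tumor cKO and 51.8 ± 16.3 RPKM in tumor WT, and 64.2 ± 2.58 RPKM in spleen cKO and 64.5 ± 1.75 RPKM in spleen WT (SD, n = 3 each). Batf3 ranked second by mean RPKM in both tumor groups, at 3.25 ± 1.46 RPKM in tumor cKO and 18.6 ± 4.37 RPKM in tumor WT, and Irf4 ranked second in both spleen groups, at 9.44 ± 0.924 RPKM in spleen cKO and 9.11 ± 0.538 RPKM in spleen WT. The genes most restricted to dendritic cells were low: Flt3, Zbtb46 and Xcr1 averaged between 0.437 and 1.79 RPKM in the tumor groups. A low value was not particular to them. Tcf4, which is also active in B cells, averaged 0.316 RPKM in tumor cKO and 1.21 RPKM in tumor WT. Its long listed length of 27382 bases lowers its RPKM.

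**Figure D2:**
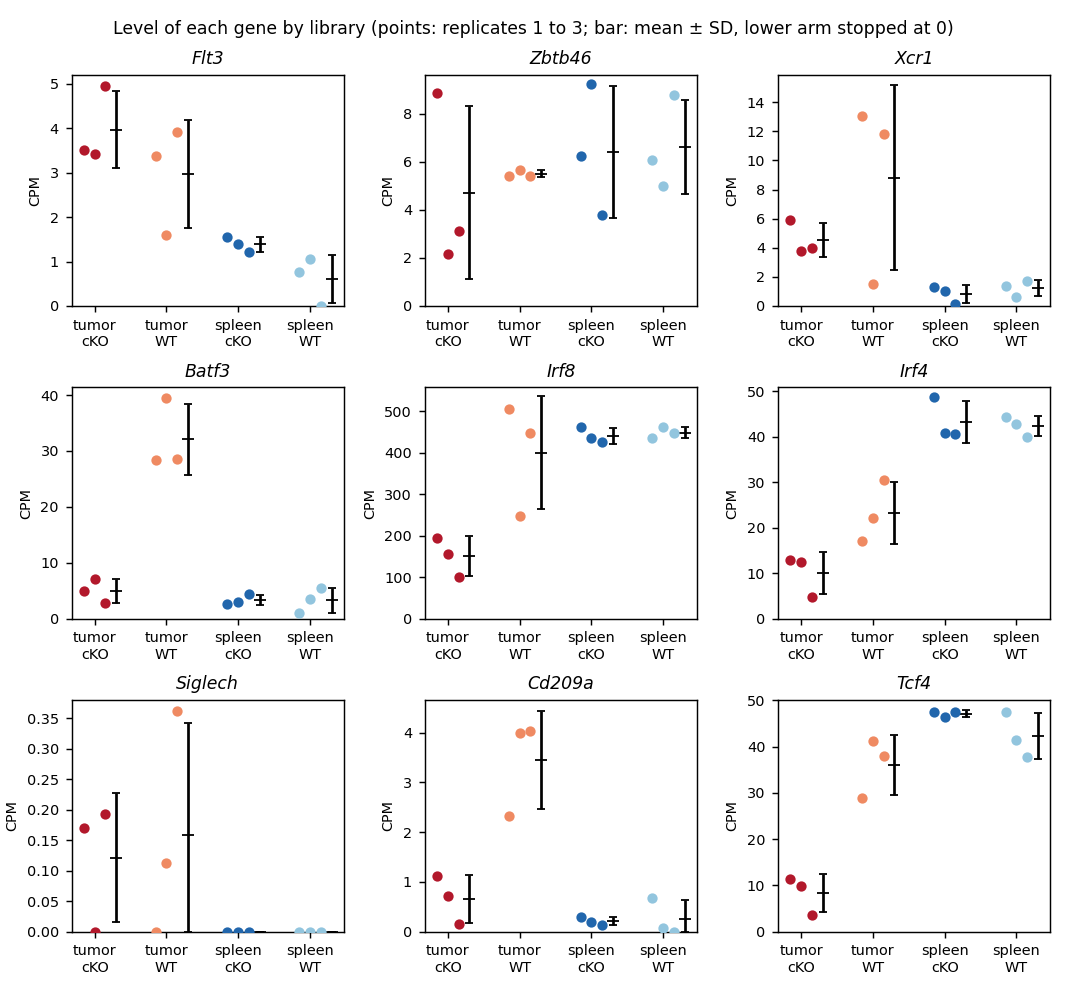
CPM of each of the 9 genes by library, with tumor cKO, tumor WT, spleen cKO and spleen WT from left to right; points are replicates 1 to 3 and bars the mean ± SD (n = 3), with the lower arm stopped at 0 and each panel on its own linear axis. Batf3, Irf8, Irf4, Cd209a and Tcf4 lie lower in all tumor cKO libraries than in all tumor WT libraries, and Siglech reaches at most 0.362 CPM.

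The comparison of tumor cKO with tumor WT asks how the tumor samples labelled with the 2 genotypes differ. Of the 8 genes tested, 5 were lower in tumor cKO (Batf3, Irf8, Irf4, Cd209a and Tcf4), none was higher, and Flt3, Zbtb46 and Xcr1 were not called. Over all genes 38% were called in either direction, 16.4% higher and 21.6% lower. In these 5 all tumor cKO libraries lay below all tumor WT libraries, as for 27.3% of all genes. The median log2 fold change of the 8 genes was −1.31, against −0.12 for all genes, and −0.78 for the 8 genes on log2(RPKM + 1). The balance of directions over all genes depended on the scaling, with 2761 genes higher and 3638 lower in the TMM fit but 3734 higher and 2772 lower without composition factors, where the median of all genes was 0.06. Limma on log2(RPKM + 0.1) gave 3921 higher and 2719 lower, and on log2(RPKM + 1) 4034 higher and 2851 lower. Batf3, Irf8, Irf4 and Tcf4 were called lower under all of these scalings, and Cd209a under all but the fit without composition factors (log2 −2.21, adjusted p = 0.0508). In bulk samples fewer cells of a type and less RNA per cell cannot be told apart, and the macrophage and monocyte markers moved with these genes: 13 of the 14 were lower in tumor cKO, with a median log2 fold change of −2.72 and none of the 14 was at 0 in any tumor library. Markers of some other cell types were lower as well, but not of all. The T cell markers had 5 of 11 higher and 1 lower (median 0.80). The B cell markers had 2 of 11 higher, 1 lower and 8 not called (median 0.79). Of 5 tested neutrophil markers 1 was lower and 4 were not called. The plasma cell markers, a cell type in which Irf4 is active, had 5 of 5 tested genes lower (median −1.52) and summed to 80.0 to 131 CPM in tumor cKO and 200.5 to 511 CPM in tumor WT. They had 3 of 5 lower without composition factors, on both RPKM scales and without tumor cKO replicate 1, 2 or 3 or tumor WT replicate 3. The NK markers had 7 of 11 lower (median −1.46), but 3 without tumor cKO replicate 3, 4 without tumor WT replicate 1 or 3, and 4 and 2 on log2(RPKM + 0.1) and log2(RPKM + 1). The stromal and endothelial markers had 4 of 6 lower (median −2.60), but 1 without tumor cKO replicate 2 or 3 or tumor WT replicate 2, and 2 on log2(RPKM + 1). The part of these cell types in the results was not tested.

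Among the surface receptors, Flt3, the receptor for FLT3 ligand on dendritic cell progenitors, was at 3.5, 3.43 and 4.96 CPM in tumor cKO, against 3.37, 1.60 and 3.92 CPM in tumor WT. The groups overlapped, and the log2 fold change was 0.43 ± 0.62 (SE, adjusted p = 0.614). Xcr1, the cDC1 receptor for the chemokine XCL1, was at 5.89, 3.79 and 3.95 CPM in tumor cKO, against 13.1, 1.49 and 11.8 CPM in tumor WT. Tumor WT replicate 2 was the lowest of the 6 libraries and the other two WT libraries the highest, so the groups overlapped (log2 −0.94 ± 0.70, adjusted p = 0.311). Without tumor WT replicate 2, Xcr1 passed (log2 −1.45, adjusted p = 0.0302). Xcl1, the gene of its ligand, averaged 2.33 ± 0.651 CPM in tumor cKO and 6.44 ± 5.14 CPM in tumor WT (SD, n = 3 each), and did not pass (log2 −1.45 ± 0.55, adjusted p = 0.0551). It was called lower without tumor WT replicate 2 (log2 −1.92), and its log2 fold change was −0.65 without tumor WT replicate 1. Flt3l, which encodes FLT3 ligand, averaged 1329 ± 47.8 CPM in tumor cKO and 1312 ± 354 CPM in tumor WT (SD, n = 3 each; log2 0.02 ± 0.18, adjusted p = 0.951). Whether the Flt3l row shares exon bases with another row was not checked, so this level may include reads of another gene.

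Cd209a, a C-type lectin of the DC-SIGN family found on cDC2 and monocyte-derived dendritic cells, was at 1.11, 0.721 and 0.155 CPM in tumor cKO, against 2.33, 4.0 and 4.04 CPM in tumor WT. The highest cKO library was below the lowest WT library, and the fitted change was −2.38 ± 0.83 (SE, adjusted p = 0.0368). It rested on 42 reads in tumor cKO and 249 in tumor WT. The call was lost without composition factors (adjusted p = 0.0508) and without tumor cKO replicate 2 (0.0883) or 3 (0.127), or tumor WT replicate 2 (0.0656) or 3 (0.0862). Siglech, a lectin of pDC, had 4, 0 and 5 reads in tumor cKO and 0, 4 and 6 reads in tumor WT. Reads were too few in both groups for a test.

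Of the transcription factors, Batf3, an AP-1 family factor needed for cDC1, was at 4.95, 7.15 and 2.79 CPM in tumor cKO, against 28.3, 39.4 and 28.6 CPM in tumor WT. All tumor cKO libraries were far below all tumor WT libraries, and the level fell 6.53-fold (log2 −2.71 ± 0.46 SE, adjusted p = 0.000801). Irf8, its partner in cDC1, was at 195 CPM, 155 CPM and 99.8 CPM in tumor cKO, against 506, 247 and 446 CPM in tumor WT. The groups did not overlap, tumor WT replicate 2 being the lowest of its group, and Irf8 fell 2.66-fold (log2 −1.41 ± 0.26 SE, adjusted p = 0.00126). Tcf4, the E protein that specifies pDC, was at 11.4, 9.86 and 3.64 CPM in tumor cKO, against 28.8, 41.3 and 37.9 CPM in tumor WT. All cKO libraries lay below all WT libraries and Tcf4 fell 4.36-fold (log2 −2.12 ± 0.32 SE, adjusted p = 0.000354).

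Irf4, which directs cDC2 and is also induced in activated lymphocytes, was at 12.9, 12.4 and 4.84 CPM in tumor cKO, against 17.1, 22.2 and 30.6 CPM in tumor WT. The groups did not overlap and Irf4 fell 2.32-fold (log2 −1.21 ± 0.31 SE, adjusted p = 0.00827). With only the 2 tumor groups in the fit, Irf4 did not pass (adjusted p = 0.0664). Zbtb46, a factor restricted among immune cells largely to conventional dendritic cells and their precursors, was at 8.84, 2.16 and 3.14 CPM in tumor cKO, against 5.41, 5.66 and 5.42 CPM in tumor WT. The 3 WT libraries were close together and lay within the wide range of the cKO libraries (log2 −0.22 ± 0.46 SE, adjusted p = 0.745). Tumor cKO replicate 3 had the lowest Batf3, Irf8, Irf4, Cd209a and Tcf4 of its group and also the lowest macrophage marker sum, 851 CPM, against 2256 and 2123 CPM in replicates 1 and 2. Without it Batf3, Irf8, Irf4 and Tcf4 were still called.

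**Figure D3:**
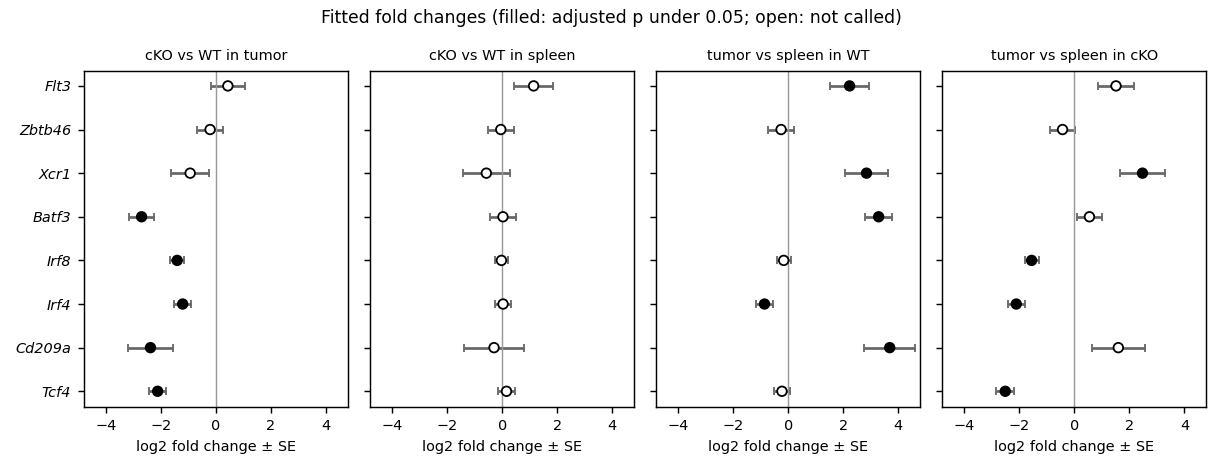
Fitted log2 fold changes (points) ± SE (bars) of the 8 tested genes in 4 panels, cKO over WT in tumor, cKO over WT in spleen, tumor over spleen in WT and tumor over spleen in cKO; filled points have an adjusted p under 0.05. Batf3, Irf8, Irf4, Cd209a and Tcf4 lie between −2.71 and −1.21 in tumor, while none of the 8 is filled in spleen.

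In spleen, the comparison of cKO with WT gave no call among the 8 genes, by edgeR, by DESeq2 or by limma on the RPKM values, and none had an unadjusted p under 0.05 in edgeR. Over all genes 0.0297% were called, 5 genes, all higher in spleen cKO. Irf8 was at 463 CPM, 434 CPM and 425 CPM in spleen cKO, against 436, 463 and 446 CPM in spleen WT, and its log2 fold change was −0.03 ± 0.25 (SE, adjusted p = 1). The 6 libraries overlapped and spanned a narrow range. Irf4 was at 48.7, 40.8 and 40.5 CPM in spleen cKO, against 44.3, 42.9 and 39.9 CPM in spleen WT (log2 0.03 ± 0.30 SE). Tcf4 was at 47.6, 46.4 and 47.5 CPM in spleen cKO, against 47.6, 41.4 and 37.7 CPM in spleen WT (log2 0.16 ± 0.30 SE), again overlapping. These 3 genes are active in B cells, whose markers summed to at least 2790 CPM in all spleen libraries; their part in these levels was not tested.

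The other members were low in spleen. Flt3 was at 1.54, 1.40 and 1.21 CPM in spleen cKO, against 0.759 and 1.05 CPM in spleen WT replicates 1 and 2 and 0 reads in replicate 3, which allows up to 0.284 CPM there. All spleen cKO libraries lay above all spleen WT libraries, as for 5.94% of all genes (11.4% did not overlap in either direction), but the log2 fold change of 1.14 ± 0.71 did not pass (adjusted p = 1). Batf3 was at 2.64, 3.01 and 4.41 CPM in spleen cKO, against 1.06, 3.46 and 5.48 CPM in spleen WT (log2 0.03 ± 0.49 SE). Xcr1 averaged 0.822 ± 0.610 CPM in spleen cKO and 1.22 ± 0.563 CPM in spleen WT, and Zbtb46 6.41 ± 2.73 CPM in spleen cKO and 6.61 ± 1.97 CPM in spleen WT (SD, n = 3 each). Both overlapped between the genotypes. Cd209a had 8 reads in the 3 spleen cKO libraries and 10 in the 3 spleen WT libraries. Siglech had no read in any spleen library, which allows up to 0.0796 CPM in spleen cKO and 0.0810 CPM in spleen WT.

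Whether the cKO effect differed between the tissues was tested directly, as the effect in tumor minus that in spleen. Over all genes 18.3% were called, 7.68% higher and 10.6% lower. Among the 8 genes 3 were called, all lower: Batf3 (log2 −2.74 ± 0.66 SE, adjusted p = 0.015), Irf8 (−1.39 ± 0.36, adjusted p = 0.0202) and Tcf4 (−2.28 ± 0.43, adjusted p = 0.00527). Irf4 missed the threshold at −1.25 ± 0.43 (SE, adjusted p = 0.061), and Cd209a, at −2.09 ± 1.38 (SE, adjusted p = 0.316), had too few reads in spleen to place its effect there. Flt3, Zbtb46 and Xcr1 had adjusted p-values of 0.645, 0.908 and 0.869. The direction over all genes here too depended on scaling, with 1293 genes higher and 1779 lower in the TMM fit but 1877 higher and 1372 lower without composition factors. Batf3, Irf8 and Tcf4 were called under both.

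Tumor was then compared with spleen in each genotype. The 2 comparisons ask how the labelled NK cell samples of the tissues differ, and each shares its libraries with the genotype comparisons above. In WT 62% of all genes were called, 33.9% higher and 28.1% lower in tumor. Of the 8 genes 4 were higher in tumor WT than in spleen WT and 1 was lower. Batf3 averaged 32.1 ± 6.34 CPM in tumor WT and 3.34 ± 2.21 CPM in spleen WT (SD, n = 3 each), a 9.75-fold rise (log2 3.29 ± 0.49 SE, adjusted p = 8.44e-05) with no overlap. Cd209a averaged 3.45 ± 0.978 CPM in tumor WT and 0.253 ± 0.375 CPM in spleen WT (log2 3.69 ± 0.93 SE, adjusted p = 0.00394). Both were above all spleen WT libraries in all tumor WT libraries, as were 36.4% of all genes.

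Xcr1 averaged 8.79 ± 6.36 CPM in tumor WT and 1.22 ± 0.563 CPM in spleen WT (SD, n = 3 each; log2 2.84 ± 0.78 SE, adjusted p = 0.0071), although tumor WT replicate 2, at 1.49 CPM, lay within the spleen range. Flt3 averaged 2.96 ± 1.21 CPM in tumor WT and 0.604 ± 0.544 CPM in spleen WT (log2 2.23 ± 0.69 SE, adjusted p = 0.0133) without overlap, and did not pass with only these 2 groups in the fit (adjusted p = 0.0523). Irf4 averaged 23.3 ± 6.80 CPM in tumor WT and 42.3 ± 2.23 CPM in spleen WT, and was lower in tumor without overlap, as were 30.9% of all genes (log2 −0.86 ± 0.30 SE, adjusted p = 0.0248). The Irf4 call was lost without spleen WT replicate 1 (adjusted p = 0.061) or 2 (0.055) or tumor WT replicate 1 (0.091) or 2 (0.0722). Irf8, Tcf4 and Zbtb46 overlapped between tumor WT and spleen WT and were not called, with adjusted p-values of 0.588, 0.526 and 0.646.

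In cKO 60.5% of all genes were called between the tissues, 31.7% higher and 28.8% lower in tumor. Of the 8 genes 1 was higher in tumor cKO than in spleen cKO and 3 were lower. Tcf4 averaged 8.31 ± 4.12 CPM in tumor cKO and 47.2 ± 0.663 CPM in spleen cKO (SD, n = 3 each), and the log2 change was −2.51 ± 0.32 (SE, adjusted p = 2.72e-05). Irf4 averaged 10.1 ± 4.54 CPM in tumor cKO and 43.3 ± 4.63 CPM in spleen cKO (log2 −2.11 ± 0.31 SE, adjusted p = 9.29e-05), and Irf8 150.3 ± 48.0 CPM in tumor cKO and 441 ± 19.7 CPM in spleen cKO (log2 −1.55 ± 0.26 SE, adjusted p = 0.000254). In all 3, the highest tumor cKO library was below the lowest spleen cKO library, as for 33.4% of all genes. The B cell markers fell in these comparisons as well: all 11 were lower in tumor in either genotype, with a median log2 fold change of −7.00 in cKO and −7.43 in WT, and their part was not tested.

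Xcr1 was higher in tumor cKO, at 4.54 ± 1.17 CPM against 0.822 ± 0.610 CPM in spleen cKO (SD, n = 3 each), with a log2 change of 2.48 ± 0.80 (SE, adjusted p = 0.0177), and did not pass without spleen cKO replicate 3 (adjusted p = 0.0545). Flt3 averaged 3.96 ± 0.864 CPM in tumor cKO and 1.38 ± 0.167 CPM in spleen cKO. Like those of Xcr1, its groups did not overlap, as for 36.6% of all genes higher in tumor, but it missed the threshold (log2 1.52 ± 0.65 SE, adjusted p = 0.0584). Flt3 passed by DESeq2 (adjusted p = 0.0126), by limma on log2(RPKM + 1) (0.00486) and without spleen WT replicate 3 (0.00869). Batf3 averaged 4.97 ± 2.18 CPM in tumor cKO and 3.35 ± 0.931 CPM in spleen cKO, overlapping, and was not called (log2 0.55 ± 0.47 SE, adjusted p = 0.328). Zbtb46 did not pass either, but was lower in tumor cKO without tumor cKO replicate 1 (log2 −1.25, adjusted p = 0.0224).

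Ordered by mean CPM over the 4 groups, the 9 genes had different profiles. Batf3 and Cd209a were highest in tumor WT, which did not overlap the next group, tumor cKO, and the other 3 groups overlapped their neighbours. Irf8, Irf4 and Tcf4 were highest in the 2 spleen groups, which overlapped each other, and lowest in tumor cKO. For Irf8 and Tcf4 the tumor WT range overlapped that of the neighbouring spleen group, whereas for Irf4 it did not. Flt3 and Xcr1 were highest in the 2 tumor groups, which overlapped each other, and the lower of the tumor groups by mean did not overlap the spleen group next in order. The neighbouring groups of Zbtb46 all overlapped.

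Over the 12 libraries, log2 CPM of Irf4 and Tcf4 had a Pearson r of 0.948, and their deviations from the group means an r of 0.921. Irf8 and Tcf4 had an r of 0.917 over the libraries and 0.433 within groups, and Irf8 and Irf4 0.889 and 0.526. Batf3 and Cd209a had an r of 0.729 over the libraries but −0.416 within groups. These correlations describe libraries that share groups and cell make-up. Among tested genes whose log2 CPM averaged 2 or more, the profiles most like that of Irf8 over the 12 libraries were those of Il21r (r = 0.987) and Lfng (0.983), and the most like that of Tcf4 were Samhd1 (0.992) and Traf5 (0.991). Irf4 was most like Tm6sf1 (0.982) and Fam122a (0.975), Batf3 like Fam76a (0.968), and Cd209a like Mtmr10 (0.954) and Mapk3 (0.951). Flt3 was most like Fdx1l (0.950) and Tmem120b (0.924), Xcr1 like Ttc19 (0.927) and Emd (0.918), and Zbtb46 like Slc35a3 (0.825) and Arl6ip1 (0.786).

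Other dendritic cell genes were taken from lists of the cDC1, cDC2, pDC and mature dendritic cell programs and of genes general to dendritic cells. In tumor cKO against tumor WT the cDC2 list had 14 of 15 tested genes lower and none higher, with a median log2 fold change of −2.09 (−1.07 on log2(RPKM + 1)). All genes had 21.6% lower and 16.4% higher. The cDC2 count lower was 11 without composition factors, 11 on log2(RPKM + 0.1) and 10 on log2(RPKM + 1). With 1 tumor library left out, the list had 10 to 12 lower. Its 3 genes of smallest p were Clec10a, a lectin of cDC2 and macrophages, Clec4a2, an inhibitory lectin of myeloid cells, and Klf4, a factor of cDC2 and monocytes. Clec10a averaged 7.82 ± 4.09 CPM in tumor cKO and 65.0 ± 4.76 CPM in tumor WT (SD, n = 3 each; log2 −3.07 ± 0.47 SE, adjusted p = 0.000463). Clec4a2 averaged 8.66 ± 3.63 CPM in tumor cKO and 39.4 ± 14.3 CPM in tumor WT (log2 −2.19), and Klf4 87.0 ± 42.3 CPM in tumor cKO and 636 ± 408 CPM in tumor WT (log2 −2.87). The near relatives of Cd209a in this list moved the same way. Cd209c (log2 −2.72 ± 0.78 SE, adjusted p = 0.0182) and Cd209d (−4.21 ± 1.07, adjusted p = 0.0132) were lower, Cd209e had no read in tumor cKO and averaged 2.30 ± 1.45 CPM in tumor WT, and Cd209b was too low to test. These lectin genes are close paralogs, so reads shared between them may be counted uncertainly. Esam, an adhesion molecule, was the 1 list gene not called. The macrophage markers given above moved with this list, many of whose genes are also expressed by macrophages.

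The cDC1 list had 7 of 14 tested genes lower and 2 higher in tumor cKO, with a median log2 fold change of −0.65. Of all genes 21.6% were lower and 16.4% higher, and the share of the list higher was near the latter. Without tumor cKO replicate 3 the list had 4 lower, without tumor cKO replicate 1 it had 1 higher, and on log2(RPKM + 1) it had 1 higher and a median of −0.29. Clec9a, the dead-cell receptor of cDC1, averaged 1.37 ± 0.507 CPM in tumor cKO and 5.52 ± 3.12 CPM in tumor WT (SD, n = 3 each; log2 −2.02 ± 0.70 SE, adjusted p = 0.0357). Wdfy4, needed by cDC1 for cross-presentation, was lower as well (log2 −1.33 ± 0.31, adjusted p = 0.00571), though it is also a B cell gene. The 3 genes of smallest p were Nfil3, a factor upstream of Irf8 in cDC1 progenitors (log2 −1.81 ± 0.26, adjusted p = 0.000302), Ppt1, a lysosomal thioesterase (log2 −0.78), and Snx22, a sorting nexin (log2 −0.52). Cadm1, an adhesion molecule of cDC1, was higher, at 1.66 ± 1.03 CPM in tumor cKO and 0.307 ± 0.169 CPM in tumor WT (log2 2.34 ± 0.61 SE, adjusted p = 0.00916), as was Cd24a (log2 0.97). Tlr3, Itgae and Cd8a were not called.

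The pDC list had 6 of 16 tested genes lower and 3 higher in tumor cKO, against 21.6% and 16.4% of all genes. The share higher was near that of all genes. The median of the list was −0.56, and −0.30 on log2(RPKM + 0.1), −0.09 on log2(RPKM + 1) and −0.09 without tumor WT replicate 1. Its 3 genes of smallest p were Ptprs, a receptor phosphatase of pDC, Cbfa2t3, a transcriptional corepressor, and Bcl11a, a factor of pDC and B cells. Ptprs averaged 104 ± 16.8 CPM in tumor cKO and 51.8 ± 10.9 CPM in tumor WT (SD, n = 3 each) and was higher (log2 1.0 ± 0.18 SE, adjusted p = 0.000847). Cbfa2t3 averaged 11.3 ± 3.27 CPM in tumor cKO and 32.5 ± 12 CPM in tumor WT (log2 −1.53 ± 0.28 SE, adjusted p = 0.00104), and Bcl11a was lower by log2 −0.94. The nucleic acid sensors Tlr7 (log2 −1.52) and Tlr9 (log2 −1.14), which are found in pDC, B cells and macrophages, were lower. Bst2 and Spib were not called.

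In the mature dendritic cell list 6 of 13 genes were lower and 1 was higher in tumor cKO (median −0.97, or −0.61 on log2(RPKM + 1)), against 21.6% and 16.4% of all genes. The signalling suppressor Socs2 (log2 −1.85 ± 0.34 SE, adjusted p = 0.00113), the chemokine Ccl5 (−1.01 ± 0.22, adjusted p = 0.00306) and the activation marker Cd83 (−1.37 ± 0.29, adjusted p = 0.00322) had the smallest p. Il12b, the p40 chain of interleukin-12 and interleukin-23, was higher, averaging 11.5 ± 7.94 CPM in tumor cKO and 1.03 ± 0.929 CPM in tumor WT (SD, n = 3 each; log2 3.48 ± 0.84 SE, adjusted p = 0.0129). Ccr7, the homing receptor of migrating dendritic cells, and Ccl22 did not pass, at adjusted p = 0.118 and 0.122. Without tumor WT replicate 2 no gene of this list was called higher, and without tumor WT replicate 3 or on log2(RPKM + 0.1) there were 2.

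Of 11 genes general to dendritic cells and their precursors, 8 were lower and 1 higher in tumor cKO (median −1.65), against 21.6% and 16.4% of all genes. Dpp4 (CD26), also a T cell gene, had the smallest p and was higher, averaging 87.2 ± 12.3 CPM in tumor cKO and 30.6 ± 5.23 CPM in tumor WT (SD, n = 3 each; log2 1.51 ± 0.19 SE, adjusted p = 0.000125). The 11 T cell markers, which summed to 612 to 816 CPM in tumor cKO and 299 to 372 CPM in tumor WT, moved with it, and their part was not tested. Cd74, the invariant chain of MHC class II, averaged 958 ± 381 CPM in tumor cKO and 4074 ± 959 CPM in tumor WT (log2 −2.09 ± 0.26 SE, adjusted p = 0.000155). Cst3, a protease inhibitor abundant in dendritic cells and macrophages, was lower by log2 −1.79, and Itgax, the integrin CD11c, by log2 −2.78 (adjusted p = 0.00174).

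The families of the transcription factors were taken as well. Their lists hold the members Irf8 and Irf4, Batf3, and Tcf4, so the counts of these families include genes already given above. Of 8 tested interferon regulatory factors, 6 were lower in tumor cKO and none higher (median −0.89), against 21.6% and 16.4% of all genes. On both RPKM scales 4 of the 8 were lower. Irf1, which interferon-gamma induces, averaged 94.0 ± 10.6 CPM in tumor cKO and 189 ± 1.51 CPM in tumor WT (SD, n = 3 each; log2 −1.01 ± 0.13 SE, adjusted p = 0.000136), and Irf5, a factor of macrophages and B cells, was lower by log2 −1.13 ± 0.16. Irf3 and Irf7 were not called. Of 11 BATF and AP-1 genes 8 were lower and none higher (median −1.13), among them Junb (log2 −1.37 ± 0.21, adjusted p = 0.000415) and Fosb (−1.68 ± 0.26, adjusted p = 0.000493). Batf, a relative of Batf3 in lymphocytes, did not pass (log2 −0.38 ± 0.17, adjusted p = 0.102). Tcf4 moved against its relatives: the E proteins Tcf12 (log2 1.13 ± 0.15, adjusted p = 0.000137) and Tcf3 (0.82 ± 0.13, adjusted p = 0.000468) were higher in tumor cKO. All calls of these lists in tumor kept their sign under the other scalings.

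**Figure D4:**
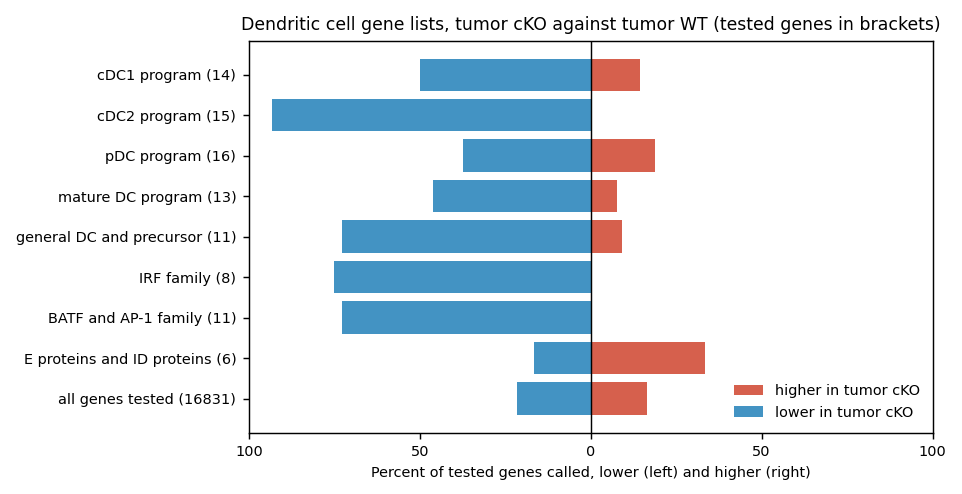
Percent of tested genes called lower (left of 0) and higher (right of 0) in tumor cKO against tumor WT for each gene list, with the number of tested genes in brackets and all 16831 genes in the bottom row. The cDC2 list has 14 of 15 genes lower, and the E protein and ID protein list has 2 of 6 higher and 1, the member Tcf4, lower. The IRF list includes the members Irf8 and Irf4, and the BATF and AP-1 list includes Batf3.

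In spleen cKO against spleen WT no gene of any of these lists was called. The nearest was Clec4a2, at 1.60 ± 0.526 CPM in spleen cKO and 0.151 ± 0.152 CPM in spleen WT (SD, n = 3 each; log2 3.25 ± 0.71 SE, adjusted p = 0.422). The macrophage and monocyte markers moved with it: their sum was higher in all spleen cKO libraries, none of the 14 was called, their median log2 fold change was 1.26, and their part was not tested. For the difference of the cKO effect between the tissues, in which 10.6% of all genes were lower and 7.68% higher, 4 of 15 cDC2 genes were lower, Clec4a2 by log2 −5.44 ± 0.79 (SE, adjusted p = 0.00183), and 6 of 11 general dendritic cell genes were lower and 1, Dpp4, higher. The cDC1 list had 2 of 14 lower, the pDC list 3 of 16 lower and 1 higher, and the mature dendritic cell list 3 of 13 lower. These calls moved with the scaling: without composition factors the cDC1 list had 0 lower and 1 higher and the mature list 0 lower, while on both RPKM scales the cDC2 list had 8 lower. Among the interferon regulatory factors 4 of 8 were lower, the member Irf8 among them, and among BATF and AP-1 genes 6 of 11, with the member Batf3. Of the 14 macrophage and monocyte markers 12 were lower (median −3.88), and their part was not tested. Tcf12 (log2 1.20) and Tcf3 (0.78) were higher.

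Between the tissues, where in WT 33.9% of all genes were higher and 28.1% lower in tumor, 11 of 15 cDC2 genes were higher and 2 lower in tumor WT than in spleen WT. Of 14 cDC1 genes 8 were higher and 3 lower, of 16 pDC genes 6 and 5, near the shares of all genes, and of 13 mature dendritic cell genes 9 and 4. The macrophage and monocyte markers were higher as well, 13 of 14 (median 6.31), and their part was not tested. Nfil3 averaged 282 ± 55.7 CPM in tumor WT and 14.8 ± 5.57 CPM in spleen WT (SD, n = 3 each; log2 4.26 ± 0.29 SE), and Bcl11a 2.78 ± 0.431 CPM in tumor WT and 264 ± 28.2 CPM in spleen WT (log2 −6.58 ± 0.20 SE). Wdfy4 averaged 54.4 ± 4.73 CPM in tumor WT and 466 ± 43.8 CPM in spleen WT (log2 −3.09). Bcl11a and Wdfy4 are also B cell genes, and all 11 B cell markers were lower in tumor WT than in spleen WT (median −7.43). The part of B cells in these falls was not tested. In cKO, where 31.7% of all genes were higher and 28.8% lower, the counts were 8 higher and 4 lower in tumor of 15 for cDC2 (5 higher on log2(RPKM + 1)), 6 and 2 of 14 for cDC1, 5 and 7 of 16 for pDC, and 7 and 3 of 13 for mature dendritic cells. Of the 14 macrophage and monocyte markers 10 were higher (median 2.0). Of the 8 interferon regulatory factors 7 were lower in tumor cKO than in spleen cKO, with Irf2 (log2 −2.20), Irf4 and Irf9 (log2 −1.34) at the smallest p. Xcl1 averaged 2.33 ± 0.651 CPM in tumor cKO and 9.62 ± 3.25 CPM in spleen cKO and was lower (log2 −2.04 ± 0.56 SE, adjusted p = 0.00696). All 11 NK markers were lower in this comparison as well (median −4.77), and their part was not tested.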

How the data were processed

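Total RNA of sorted samples was extracted with TRIzol and sequenced on a NovaSeq instrument, per the labels' protocols. Reads were mapped to mm10 with TopHat2 2.0.6, per the submitters' processing notes. Which program counted reads, and on which strand, is not given in the sources used here. Raw read counts per gene were deposited by the authors, as was a table of RPKM values (reads relative to gene length and library total). The RPKM values matched those computed from the counts within a relative tolerance of 0.001 in 100% of nonzero values. Between 68.8% and 73.3% of counts from 1 to 49 were even numbers, so counting noise may exceed that of single reads. Floors for genes without reads are 3 counts and cover counting error only. A check of gene positions used GENCODE vM21.

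Counts were fitted in R 4.3.3 with edgeR 4.0.16: filterByExpr over the 4 groups, TMM factors (0.896 to 1.055), robust quasi-likelihood dispersion (common value 0.0801), 1 mean per group and 8 residual degrees of freedom. Tests were two-sided F-tests for 5 contrasts. CPM shown as log2 used a prior count of 2. The replicate number was not a block, since no label ties equal numbers to 1 animal or day. The code was tested on simulated data. Alternatives were RLE or no composition factors, no filter or 1 CPM in 3 libraries, DESeq2 1.42.0, limma 3.58.1 on log2(RPKM + 0.1) and log2(RPKM + 1), the replicate block, fits of only the 2 groups compared, and leaving out each library. The members and gene lists were chosen with earlier results of these data known. The rule for named genes took all 9 members, the up to 3 genes of smallest p per list and comparison, and the 2 tested genes most correlated with each member, leaving out predicted models and pseudogenes. A gene that this rule named is not reported here. Other list genes named, such as Clec9a, Wdfy4, Cadm1, Cd24a, the Cd209 relatives, Il12b, Itgax and the genes given as not called, were chosen after their values were seen. In the comparisons between tissues and of the tissue difference, list genes are given by counts with a few of those of smallest p.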

Additional observations from a re-analysis of the deposited data

Results flagged for a closer look

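The difference of cKO from WT in the level of Batf3, Irf8 and Tcf4 was not the same in the 2 tissues. The cKO effect in tumor minus that in spleen was −2.74 on the log2 scale for Batf3 (adjusted p = 0.015), −1.39 for Irf8 (0.0202) and −2.28 for Tcf4 (0.00527), by edgeR's interaction contrast over all genes tested. In this contrast 18.3% of all genes were called. Each of the 3 was lower in 3 of 3 tumor cKO libraries than in all tumor WT libraries, as were 27.3% of all genes. Each overlapped between the genotypes in spleen, where 11.4% of all genes did not overlap. In tumor the macrophage and monocyte marker sum was lower in cKO as well, and their part was not tested. The B cell markers summed to at least 2790 CPM in the spleen libraries and at most 74.2 CPM in the tumor libraries. Irf8 and Tcf4 are also active in B cells, and the part of these cells was not tested.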

How the results depend on the processing

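The number of members called was 5 in tumor, 0 in spleen, 5 between tissues in WT, 4 between tissues in cKO and 3 for the tissue difference. It kept within 1.5 times of these under all alternatives run, from 4 to 5, 0, 4 to 5, 3 to 5, and 3 to 4 when 1 library was left out. The count over all genes moved by more only in spleen, from 5 to 230 without a filter, 46 by DESeq2, 31 with only the 2 groups, 10 and 11 by limma on log2(RPKM + 0.1) and log2(RPKM + 1), 2 with the replicate block, and 0 to 8 when 1 library was left out. The cause was not tested. In tumor 4410 genes were called without tumor cKO replicate 3, against 6399.

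Signs turned only for members that were not called. Limma on log2(RPKM + 0.1) gave 0.23 for Cd209a in spleen and 0.16 for Xcr1 in the tissue difference, and log2(RPKM + 1) gave 0.053 for Flt3 there. With 1 library left out, Zbtb46 ranged from −1.04 to 0.13 in tumor, −0.40 to 0.22 in spleen and −0.99 to 0.19 in the difference. In spleen Irf4 ranged from −0.058 to 0.080, Batf3 from −0.40 to 0.57, Irf8 from −0.062 to 0.00014 and Cd209a from −0.81 to 2.18. Irf8 between tissues in WT ranged from −0.37 to 0.10 and Xcr1 in the difference from −0.88 to 0.24. Beside the lost calls given in the report, Irf4 passed in the difference without a filter (adjusted p = 0.000934), by DESeq2 (0.0294) and without tumor cKO replicate 1 (0.0402) or tumor WT replicate 1 (0.0432), and Cd209a by limma on log2(RPKM + 1) (0.0219). Flt3 between tissues in cKO also passed without a filter (0.0189), by limma on log2(RPKM + 0.1) (0.0218), with only the 2 groups (0.00509) and without tumor WT replicate 2 (0.0315). DESeq2 gave no adjusted p for 1 member in each comparison.

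Same-numbered cKO and WT libraries of a tissue had correlations of their deviations from the group means of −0.09, −0.02 and 0.11 in tumor and −0.003, 0.02 and 0.03 in spleen. For spleen and tumor libraries of equal number this correlation was not computed, so a pairing between the tissues was not checked. With 3 libraries per group, these values cannot decide whether equal numbers share an animal or day. With the replicate block the members called were 5, 0, 5, 4 and 3 and the genes called 5969, 2, 10112, 9954 and 2792, against 6399, 5, 10437, 10183 and 3072. With 8 reads of Cd209a in spleen cKO and 10 in spleen WT, a fall or a modest rise of this gene in spleen cKO could not be seen at this depth. Siglech had no read in either group, so a genotype difference below its floors could not be seen.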
